A study of Gallus gallus with 4 samples.

Results

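MSI1, NEUROD4, HES6, SOX3, SOX8 and EBF3 are regulators of neural progenitors and of the neurons they give rise to, and they were examined here in the optic tectum of chick embryos (Gallus gallus). They are 6 of 8408 genes that could be given a symbol on the array, and they are read by 8 of its 42034 gene probes. A probe was taken for a gene when its gene name in the files was that symbol or when its description named the gene. The 6 were chosen by their log2 ratios on these same arrays, with earlier results in view, so all of their values below are descriptions without a test.

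The optic tectum is the midbrain centre that receives the axons of the retina. Tecta of chick embryos were cut into an anterior and a posterior part at Hamburger-Hamilton stages HH35 and HH37, or into a medial and a lateral part at HH30 and HH35, and 60 such pieces were pooled for each channel of a two-colour array. The Cy5 channel held the posterior pool and the Cy3 channel the anterior pool on both anteroposterior arrays. The labels name no strain, genetic change or treatment. Each axis and stage is 1 array with no dye swap, so a gene-specific dye difference cannot be told apart from a difference between the parts, and no difference has a replicate check.

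In the developing brain, progenitors next to the ventricle divide and hand over cells that leave the cycle, migrate outward and become neurons. SOX3, a SOXB1 factor, and MSI1, an RNA-binding protein, mark cells that still divide, whereas the basic helix-loop-helix factors HES6 and NEUROD4 are known from cells that commit to a neuronal fate. EBF3, a factor of the COE family, is known from young neurons, and SOX8 is a SOXE factor known from the glial lineage and the neural crest. The tectum matures earlier at its anterior end than at its posterior end.

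For the mediolateral arrays, the labels put the medial pool in Cy5 and the lateral pool in Cy3. The medial over lateral ratio of the authors' deposited table runs the opposite way, with Cy3 over Cy5, so the side is not settled and these pools are called by their dye. All ratios are log2 of Cy5 over Cy3, after background correction and loess normalisation within each array. Repeated control spots of 1 array had a median SD of 0.114 (anteroposterior, HH35), 0.116 (anteroposterior, HH37), 0.119 (mediolateral, HH30) and 0.151 (mediolateral, HH35) on this log2 scale. That SD covers the spread of spots within an array and no biological spread. A spot counted as measured when at least 1 channel stood well above its local background.

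Between 63.2% and 79.5% of gene probes were measured per array, and the anteroposterior array at HH37 was the dimmest. Tectal markers such as GATA3, LHX9, MEIS2, PAX7 and TFAP2B were measured on all 4 arrays. Of 14 genes with a probe in the tectum list, 13 or 14 were measured per array. A feature here is a gene by its brightest probe or a probe without a symbol. The share of features at least 1.5-fold higher in 1 pool was 2.04% (posterior) and 6.04% (anterior) at HH35, and 1.5% (posterior) and 9.91% (anterior) at HH37. On the mediolateral arrays it was 1.49% (Cy5) and 1.18% (Cy3) at HH30, and 1.43% (Cy5) and 0.782% (Cy3) at HH35. These splits depend on the scaling. In counts, the posterior to anterior split was 656 to 1941 at HH35 and 384 to 2529 at HH37. With median centring in place of loess it was 173 to 4270 and 60 to 5898, and it was 2720 to 3740 and 3500 to 5204 by the deposited values. The Cy5 to Cy3 split of the mediolateral arrays was 421 to 335 at HH30 and 409 to 224 at HH35. It was 332 to 517 and 300 to 441 with median centring, 932 to 1454 and 1018 to 1104 with plain background subtraction, and 1365 to 2335 and 1951 to 2101 by the deposited values.

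At HH35, 5 of the 6 genes were at least 1.5-fold higher in the posterior part and EBF3 was at least 1.5-fold higher in the anterior part, against backgrounds of 2.04% and 6.04% of 32146 features. These ratios were among the values by which the genes were picked, so nothing is read from that count. The median of the 6 ratios was 0.71, where that of all features was -0.01. At HH37 only MSI1 was past 1.5-fold on the posterior side, against a background of 1.5%, and SOX8 and EBF3 were past it on the anterior side, against 9.91%. NEUROD4, at 0.58, lay just under the limit at HH37. The median of the 6 was 0.21 there and that of all features -0.02. Features in the top quartile of brightness had a median of 0.06 at HH35 and of -0.18 at HH37. Apart from NEUROD4, each of the 6 genes had a mean level above that of at least 83.8% of features.

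**Figure D1:**
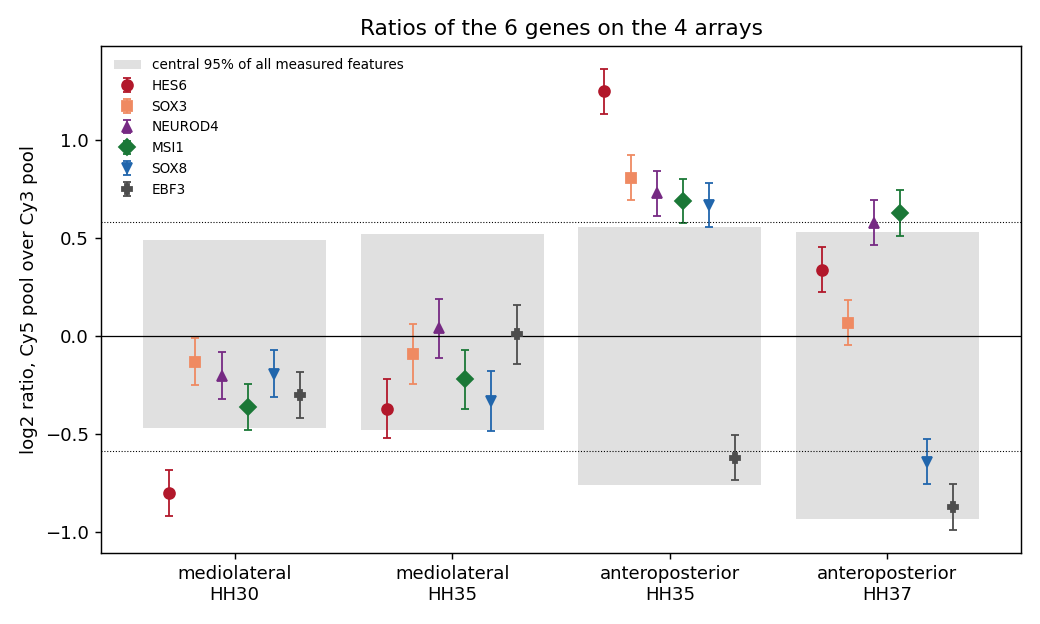
The log2 ratio of Cy5 over Cy3 (vertical axis) of each gene on each array (horizontal axis), with bars of 1 SD of repeated control spots, dotted lines at 1.5-fold and a grey band for the central 95% of all measured features. The 5 genes other than EBF3 stand above the band on the anteroposterior array at HH35, HES6 the furthest at 1.25, and HES6 stands below the band on the mediolateral array at HH30 at -0.80.

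HES6, a helix-loop-helix protein that promotes neuronal differentiation and opposes HES1 in the mouse, had the highest posterior over anterior ratio of the 6 at HH35, except with plain background subtraction, where it was 1.33 and that of NEUROD4 1.38. At HH37 MSI1 and NEUROD4 had higher ratios than HES6. On the anteroposterior array at HH35 its normalised intensity was 1026 in the posterior pool and 431 in the anterior pool. At HH37 the intensities were 825 in the posterior pool and 652 in the anterior pool. The posterior pool was the higher one at both stages, by 2.38-fold at HH35 (log2 ratio 1.25) and by 1.26-fold at HH37 (0.34). At HH35 99.9% of measured features had a lower ratio than HES6. That ratio was among the values by which HES6 was picked, so nothing is read from the rank. The authors' deposited table gives anterior over posterior ratios of 0.36 and 0.743 at these stages. With median centring the HH37 ratio of HES6 turned to -0.07, while that at HH35 was 0.98.

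On both mediolateral arrays the Cy3 pool was the higher one for HES6. Its intensity was 5904 (Cy5 pool) and 10258 (Cy3 pool) at HH30. At HH35 it was 743 (Cy5 pool) and 963 (Cy3 pool). The log2 ratios were -0.80 and -0.37, and HES6 was the only one of the 6 past 1.5-fold on a mediolateral array, against a background of 1.18% of features on the Cy3 side at HH30. Only 0.279% of features had a lower ratio on that array. HES6 was picked with these ratios in view too, so nothing is read from that rank or from its passing 1.5-fold. The difference between its ratios on the anteroposterior and the mediolateral array at HH35 was 1.63. These ratios compare different parts, so that number is no measure of either axis.

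SOX3, which keeps chick neural progenitors from differentiating, was also higher posteriorly at HH35. Its intensity was 1415 in the posterior pool and 807 in the anterior pool at HH35. At HH37 it was 766 in the posterior pool and 728 in the anterior pool. The HH35 difference was 1.75-fold (log2 ratio 0.81), and that at HH37, 0.07, was smaller than the SD of repeated spots. With median centring the HH35 ratio was 0.57, under 1.5-fold, and the HH37 ratio turned to -0.33. On the mediolateral arrays SOX3 had 3190 (Cy5 pool) and 3481 (Cy3 pool) at HH30, and 709 (Cy5 pool) and 755 (Cy3 pool) at HH35. These ratios, -0.13 and -0.09, lay close to those of all features, whose medians were -0.02 on each array.

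Under the normalisation used, MSI1 was the one gene of the 6 that stayed past 1.5-fold on the posterior side at both stages. The files carry it as LOC416979, described as similar to Musashi homolog 1, a protein known in the mouse for holding back translation of the Notch antagonist Numb. MSI1 had an intensity of 928 in the posterior pool and 575 in the anterior pool at HH35. At HH37 MSI1 had 1229 in the posterior pool and 797 in the anterior pool. Its log2 ratios of 0.69 and 0.63 differed by 0.07, less than the SD of repeated spots on either array. With median centring they were 0.43 and 0.25, both under 1.5-fold. NEUROD4 was also past 1.5-fold posteriorly at both stages with plain background subtraction, without background correction and by the deposited values. On the mediolateral arrays MSI1 had 2037 (Cy5 pool) and 2610 (Cy3 pool) at HH30, and 1967 (Cy5 pool) and 2291 (Cy3 pool) at HH35. The Cy3 pool was thus the higher one on both, at -0.36 and -0.22.

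NEUROD4, known in the chick as NeuroM from cells that have just stopped dividing, gave the faintest signal of the 6. Its foreground at HH35 was 140 over a background of 43 in the posterior pool, and 80 over 41 in the anterior pool, which was not well above background. By its computed log2 ratio of 0.73 NEUROD4 was 1.66-fold higher posteriorly at HH35, a size left uncertain by the faint anterior signal. At HH37 both channels were measured, with normalised intensities of 325 in the posterior pool and 218 in the anterior pool and a log2 ratio of 0.58. On the anteroposterior arrays the alternatives tried moved this faint gene more than the others. Its HH35 ratio was 0.47 with the median of foreground pixels and 1.38 with plain background subtraction, and its HH37 ratio was 0.28 with median centring and 1.22 in the deposited value table. On the mediolateral array at HH30 the intensities were 206 (Cy5 pool) and 237 (Cy3 pool), a ratio of -0.20. At HH35 its Cy5 signal did not clear the background limit and the ratio was 0.04.

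SOX8 changed sides between the stages. Its intensity was 1352 in the posterior pool and 849 in the anterior pool at HH35. At HH37 it was 559 in the posterior pool and 873 in the anterior pool. The ratio was 0.67 at HH35 and -0.64 at HH37, so that SOX8 stood 1.59-fold higher posteriorly at the earlier stage and 1.56-fold higher anteriorly at the later one. The authors' deposited table has the same turn, with anterior over posterior ratios of 0.591 and 1.64. With median centring the ratios were 0.43 and -1.05. A change of sign was not particular to SOX8. Of 10 measured genes in a list of other SOX genes, 8 were above 0 at HH35 and 9 below 0 at HH37. Of all features, 51.6% were below 0 at HH35 and 52.5% at HH37. Among the other SOX genes, SOX9 stood at 0.28 and -0.44, and SOX11 at 0.21 and -1.24. By their computed ratios SOX5 and SOX6 were below 0 at both stages and SOX30 above 0 at both. At HH35, 0 of the 10 were past 1.5-fold. SOX8 was picked with its ratios in view, and with median centring it too was under 1.5-fold at HH35. Nothing is therefore read from that contrast. On the mediolateral arrays SOX8 had 1313 (Cy5 pool) and 1494 (Cy3 pool) at HH30, and 669 (Cy5 pool) and 842 (Cy3 pool) at HH35. The Cy3 pool was higher on both, at -0.19 and -0.33.

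EBF3 was the one gene of the 6 on the anterior side at both stages. Its brightest probe had 2379 in the posterior pool and 3657 in the anterior pool at HH35. At HH37 that probe had 619 in the posterior pool and 1135 in the anterior pool. The log2 ratios were -0.62 and -0.87, or 1.54-fold and 1.83-fold higher anteriorly. EBF3 has 3 probes, and they disagree in size at HH35. The second, whose description calls it similar to Ebf3 protein, gave -0.16 at HH35 and -0.71 at HH37, so that the HH35 value past 1.5-fold rests on the brightest probe. The third, a transcript cluster described as COE3, was not well above background in the posterior pool on either array and gave -0.21 and -0.20. On the mediolateral arrays the brightest probe of EBF3 had 2169 (Cy5 pool) and 2670 (Cy3 pool) at HH30, and 851 (Cy5 pool) and 844 (Cy3 pool) at HH35. The ratios were -0.30 and 0.01.

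**Figure D2:**
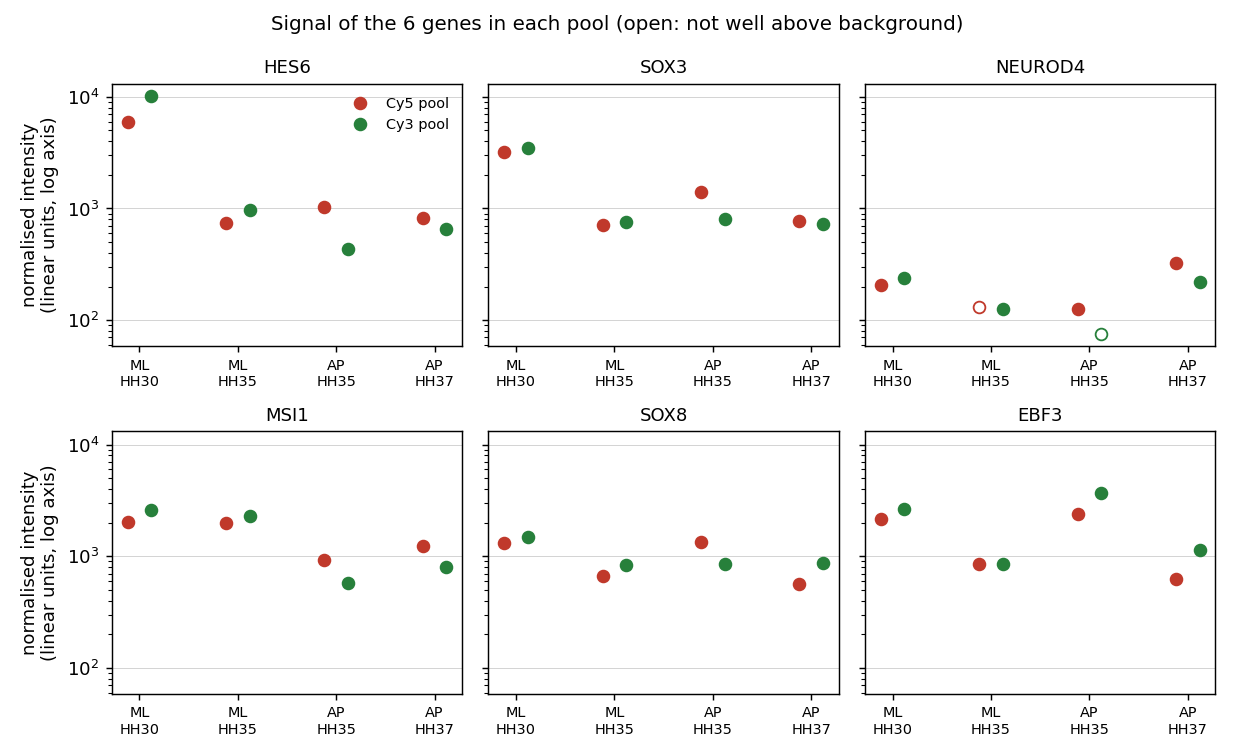
Normalised intensity (vertical axis, logarithmic) of the brightest probe of each gene in the Cy5 and the Cy3 pool of each array (horizontal axis, ML mediolateral and AP anteroposterior), with open circles where the channel was not well above background. HES6 stands at 5904 and 10258 on the HH30 array and at or below 1026 on the 3 later arrays, and NEUROD4 stays at or below 325 throughout.

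The ratio of posterior over anterior was lower at HH37 than at HH35 by at least 1.5-fold for 3 of the 6 genes. The background for that direction was 8.97% of 24458 features, and it was 3.97% for a ratio that rose. The change in log2 ratio was -1.31 for SOX8, -0.91 for HES6 and -0.74 for SOX3. Only 0.397% of features had a lower change than SOX8. These changes contain the HH35 ratios, which were among the values by which the genes were picked. Nothing is therefore read from that count or that rank. The change for EBF3 was -0.25. MSI1 and NEUROD4 had computed changes of -0.07 and -0.15, whose sign depended on the processing. That of MSI1 was 0.06 both with plain background subtraction and by the deposited values. That of NEUROD4, whose anterior HH35 signal was faint, was 0.25 with the median of foreground pixels and 0.21 by the deposited values. Between HH30 and HH35 on the mediolateral axis 0 of the 6 ratios changed by 1.5-fold, against backgrounds of 2.04% upward and 3.81% downward. The largest of these changes was 0.42, for HES6.

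On the mediolateral array at HH30, 6 of 6 ratios were below 0, as were 53.0% of all features there, and the median of the 6 was -0.25. Genes of meninges and mesenchyme lay on the same side of that array, with 5 of 7 below 0 and a median of -0.36. Among them were COL1A2 at -0.57, LUM at -0.51 and DCN at -0.47, whereas PTGDS at 0.26 and TWIST1 at 0.07 lay above 0. The summed intensity of this list was 34071 (Cy5 pool) and 44371 (Cy3 pool). COL1A2 made up most of it, with 19093 (Cy5 pool) and 28346 (Cy3 pool). The list for other brain regions lay on the opposite side by its median of 0.48, with 7 of 9 measured genes above 0. By summed intensity the Cy3 pool was the higher one for this list too, at 9280 (Cy5 pool) and 12398 (Cy3 pool). EMX2, at -0.77, made up most of that sum, with 6352 (Cy5 pool) and 10827 (Cy3 pool). Proneural and differentiation factors also lay on the Cy3 side, with 12 of 15 measured genes below 0 and a median of -0.36. Past 1.5-fold on that side were 3 of these 15 and 3 of 17 Notch pathway genes, against 1.18% of features. The part of these lists in the ratios of the 6 genes was not tested. On the HH35 array 4 of 6 were below 0 against 52.6% of features, with a median of -0.16. NEUROD4 and EBF3, at 0.04 and 0.01, were the pair above 0 on that array, and both turned to the other side in the value table, at -0.47 and -0.07.

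The mean of both channels of an array gives a level for the whole tectum at that stage. The 2 arrays at HH35 show how far such levels can be compared. Over 22499 features measured on all arrays, the level on the anteroposterior array minus that on the mediolateral array, both HH35, had an SD of 1.19 on the log2 scale, and 33.5% of features differed at least 2-fold. The central 95% of these same-stage differences ran from -2.96 to 2. The level of HES6 was 7782 on the HH30 array, 665 on the anteroposterior and 846 on the mediolateral array of HH35, and 733 at HH37. The HH30 level of HES6 was thus above all 3 later ones, and the mediolateral array at HH35 was 9.20-fold below it (log2 difference -3.20), a difference larger in size than either end of that range. Only 0.0889% of features changed further downward. HES6 was picked with values of these arrays in view, and each level comes from 1 array. The range itself comes from a single pair of arrays, so no verdict is drawn for HES6. SOX3 had levels of 3332 at HH30, 1069 (anteroposterior) and 731 (mediolateral) at HH35 and 747 at HH37, with a difference of -2.19 between the mediolateral arrays. That lies inside the range as given, but outside it if the same-stage arrays are subtracted in the other order. No verdict is drawn for SOX3 either. In pooled tissue, fewer cells of a type and less RNA per cell cannot be told apart.

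For MSI1, EBF3, SOX8 and NEUROD4 the differences between stages along each axis were smaller in size than both ends of that range, by the brightest probe. The second EBF3 probe gave -2.41 between the anteroposterior arrays. MSI1 stood at 2306 at HH30, 731 on the anteroposterior and 2122 on the mediolateral array of HH35, and 990 at HH37, so the arrays of the same stage differed 2.90-fold. EBF3 differed 3.48-fold between the HH35 arrays, at 2949 (anteroposterior) and 848 (mediolateral), and had 2406 at HH30 and 838 at HH37. SOX8 ranged from 699 at HH37 to 1400 at HH30, and NEUROD4 from 97 at HH35, on the anteroposterior array, to 266 at HH37.

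Related genes were taken from lists of neural progenitor genes, Notch pathway genes, proneural and differentiation factors, other SOX genes and genes of post-mitotic neurons, each without the 6 genes. The list of other SOX genes shares SOX1, SOX2 and SOX9 with the progenitor list and SOX11 with the proneural list. At HH35, 3 of 19 measured progenitor genes were at least 1.5-fold higher posteriorly and 1 anteriorly, against 2.04% and 6.04% of all features. The list median was 0.03 (-0.02 with median centring). ID3, an inhibitor of helix-loop-helix factors, was highest at 0.95, and NR2E1, a nuclear receptor of neural stem cells, lowest at -0.67. The close relatives of SOX3 stood at 0.23 (SOX1) and 0.43 (SOX2), and SOX9, a SOXE factor like SOX8, at 0.28, all under 1.5-fold. MSI2, the paralogue of MSI1, was at -0.13. Of 10 measured genes in the list of other SOX genes, 0 were past 1.5-fold on either side at HH35, with a median of 0.25. At HH37 0 were past it posteriorly and 1 anteriorly, against 1.5% and 9.91% of all features, with a median of -0.39.

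At HH37 the progenitor list lay on the anterior side. Of 18 measured genes 0 were past 1.5-fold posteriorly and 4 anteriorly, against 1.5% and 9.91% of all features, with a median of -0.41, where the top quartile of brightness had -0.18. SLC1A3, the glutamate transporter of radial glia, was lowest at -0.90. SOX1, SOX9 and MSI2 stood at -0.28, -0.44 and -0.41. SOX2 had a computed ratio of -0.38 with a posterior signal that did not clear the background limit.

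In the Notch pathway, 1 of 17 measured genes was past 1.5-fold posteriorly at HH35 and 2 anteriorly, against 2.04% and 6.04% of all features. The list median was -0.02. The posterior one was NOTCH1, the receptor, at 0.69, with its other probes at 0.79 and 0.65. With median centring NOTCH1 was at 0.46, under 1.5-fold. JAG2, a ligand, did not clear the background limit in the posterior pool. Its computed ratio was 1.76-fold higher anteriorly, a size that is uncertain. HES5, a Notch target, was at 0.23 at HH35 and was not measured at HH37. At HH37, 0 of 14 were past 1.5-fold posteriorly and 2 anteriorly, where 9.91% of all features were past it anteriorly, the lowest being the protease ADAM10 at -0.76.

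Among proneural and differentiation factors, 14 genes were measured at HH35, and their median was 0.13. At HH37, 0 of 12 were past 1.5-fold posteriorly and 3 anteriorly, against 1.5% and 9.91% of all features. SOX11, a factor of young neurons, was lowest at -1.24. EBF1 and EBF2, relatives of EBF3, were at -0.10 and 0.45 at HH35. NEUROD1 was not measured on either anteroposterior array.

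Genes of post-mitotic neurons lay on the opposite side from HES6, SOX3, MSI1, SOX8 and, by its computed ratio, NEUROD4 at HH35. Of 12 measured, 0 were past 1.5-fold posteriorly and 4 anteriorly, against 2.04% and 6.04% of all features. Below 0 were 11 of 12, against 51.6% of all features, with STMN3 the exception at 0.31, and the median was -0.49. MAP1B, which binds microtubules in growing axons, was lowest at -1.15. At HH37, 12 of 12 were past 1.5-fold anteriorly, against 9.91% of all features. Their median was -1.50, where the top quartile of brightness had -0.18, and MAP1B stood at -2.17. Summed over the list, the normalised intensity was 156133 in the posterior pool and 202178 in the anterior pool at HH35. At HH37 it was 39793 in the posterior pool and 104160 in the anterior pool. The part of this neuronal difference in the ratios of the 6 genes was not tested.

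**Figure D3:**
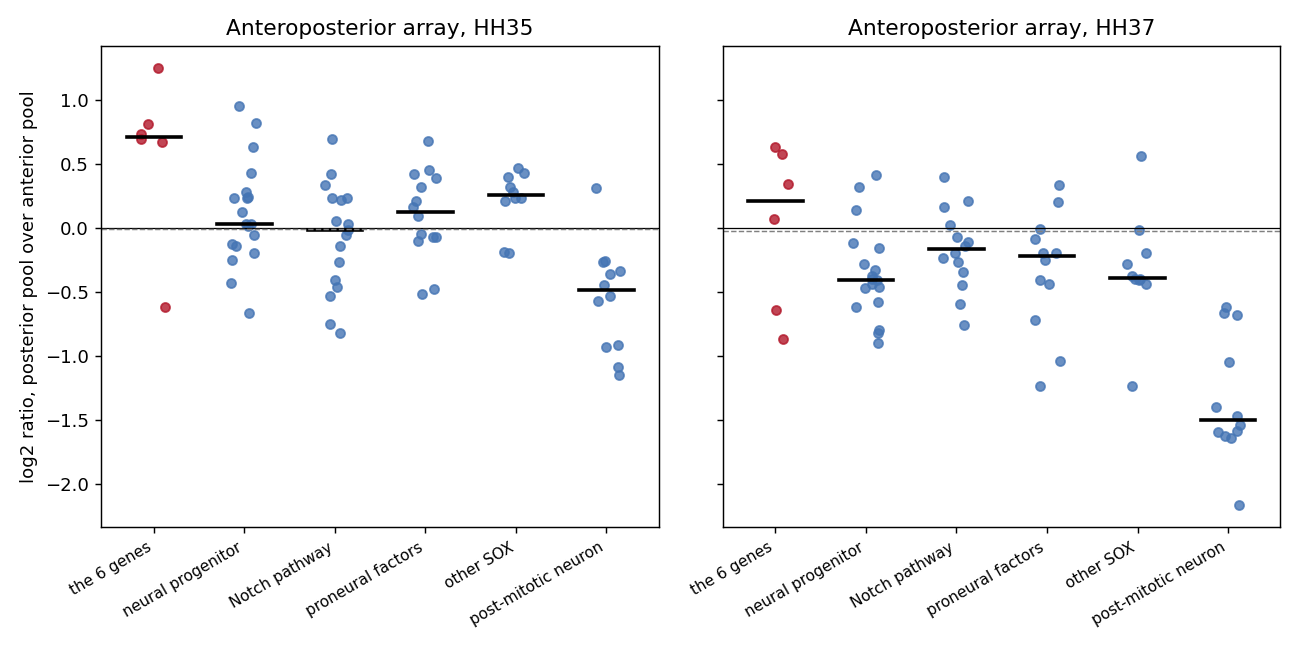
The log2 ratio of posterior over anterior (vertical axis) for the 6 genes (red) and for the measured genes of 5 lists (blue) on the anteroposterior arrays at HH35 and HH37, with black bars at the medians and a dashed line at the median of all features. The post-mitotic neuron genes have a median of -0.49 at HH35 and -1.50 at HH37, and the 6 genes one of 0.71 and 0.21.

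On the mediolateral array at HH30, PAX6, a homeobox gene of progenitors, was highest in the progenitor list at 1.40 and NR2E1 lowest at -0.77. JAG1, a Notch ligand, was lowest of its list at -0.75. In the neuronal list NEFL, a neurofilament gene, was highest at 0.63 with a list median of 0.23. At HH35 ST18 was lowest of the proneural list at -0.74 and SNAP25, a synaptic protein, of the neuronal list at -0.75. The neuronal list there had 12 of 12 genes on the Cy3 side and a median of -0.42, the opposite side from HH30. SOX30 was highest of the other SOX genes at 0.71, although its other probe gave 0.18.

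On the anteroposterior arrays, markers of other cell types gave medians nearer 0 than the neuronal list did. The lists were not matched for brightness, and the top quartile of brightness had a median of 0.06 at HH35 and -0.18 at HH37. The medians of the lists for blood, endothelium, microglia and leukocytes, meninges and the oligodendrocyte lineage lay between -0.01 and 0.18 at HH35 and between -0.32 and 0.10 at HH37. With median centring those of the oligodendrocyte and meninges lists turned to -0.03 and -0.07 at HH35, and that of the meninges list to -0.11 at HH37. The endothelium list then had -0.19 at HH35 and -0.51 at HH37. Blood genes at HH37 had 3 of 7 past 1.5-fold anteriorly, against 9.91% of all features, namely HBBA at -1.68, HBA1 at -1.33 and TAL1 at -0.72. TAL1 is also in the list of proneural and differentiation factors and is counted in both, so it does not mark blood alone. The globins HBE1 and HBZ lay on the posterior side at 0.43 and 0.38, as did EPB42 at 0.08, and HEMGN was at -0.10 with its posterior signal below the background limit. Summed, the blood list had 47928 in the posterior pool and 47187 in the anterior pool at HH35. At HH37 its sums were 15894 in the posterior pool and 30564 in the anterior pool, a gap that the list median of -0.10 does not show. The oligodendrocyte list, which bears on SOX8, had 5 genes with a probe. MBP, a myelin protein, stood at 1.18 at HH35 and 0.36 at HH37, SOX10 at 0.40 and, with the posterior pool below the background limit, -0.02, and PDGFRA at 0.18 and -0.68. NKX2-2 stood at -0.12 and -0.13, and CNP at -0.07 at HH35 and, with the posterior pool below the background limit, -0.16 at HH37. Summed, the oligodendrocyte list had 14085 in the posterior pool and 14953 in the anterior pool at HH35, and 6355 in the posterior pool and 6927 in the anterior pool at HH37. NKX2-2 made up most of the HH35 sums, with 12486 in the posterior pool and 13597 in the anterior pool. The part of this list in the change of SOX8 was not tested.

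Likeness of profile was measured by the root mean square difference over the 4 log2 ratios. Among the 6, HES6 and EBF3 were the least alike, at 1.16. The same measure over 6732 other genes with a symbol that were measured on all 4 arrays gave the nearest neighbours of each. For SOX3 they were HKDC1, PML and SSTR2, at 0.014 to 0.097. For MSI1 they were ADH1C, PFDN1 and PFKFB2, at 0.170 to 0.205, and for NEUROD4 SLC30A2, SRRM4 and OSMR, at 0.130 to 0.145. These rest on computed ratios, and the anterior HH35 signal of NEUROD4 was not well above background. HES6 had no neighbour closer than 0.218, the nearest being LEUTX, whose probe the files describe as similar to DBX1, then HYAL2 and DIO3. For SOX8 they were RNF44, SARS1 and DBNDD1, at 0.107 to 0.128, and for EBF3 MYL12A, TCOF1 and KIAA1429, at 0.079 to 0.104. With 4 arrays, each of them a single measurement, such a distance describes these arrays only.

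**Figure D4:**
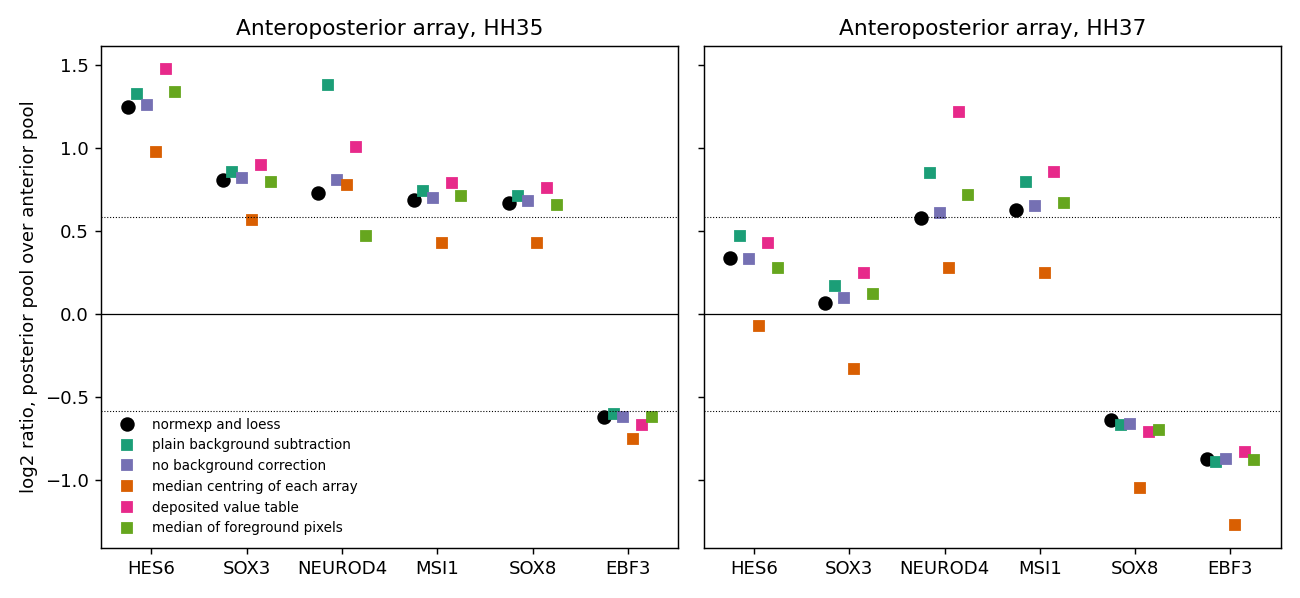
The log2 ratio of posterior over anterior (vertical axis) of each gene (horizontal axis) on the anteroposterior arrays at HH35 and HH37 under the normalisation used (black) and 5 others (colours), with dotted lines at 1.5-fold. At HH35 each gene keeps its side under all 6, and at HH37 HES6 and SOX3 turn to -0.07 and -0.33 with median centring.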

How the data were processed

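Each of 4 two-colour arrays of 45220 spots compared pools of 60 pieces of tectum. Per the file headers, the deposited spot tables hold foreground and background intensity of each spot without normalisation. The submitters' processing notes name Agilent Feature Extraction, whereas the columns are those of GenePix, so no background flags were used. A further table from the authors holds, for every probe, 1 deposited ratio per array. The sources used here do not give its normalisation. A value table, also deposited by the authors, is the log2 of that ratio. It runs against Cy5 over Cy3 on all 4 arrays and was turned round (correlation with the ratios used here 0.724 to 0.848 over 41824 probes, median -0.13 at HH37 after turning).

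Background was corrected by normexp (offset 50) on mean foreground and median background, and ratios were normalised by loess (span 0.3, with controls given no weight) using limma 3.58.1 and R 4.3.3. Levels were normalised between arrays by Aquantile. A channel stood well above background where its mean foreground exceeded the median background by 2.6 SD of the background in a spot that the scanner software had found. With 1 channel below that limit the fold given is the computed one, and its size is uncertain. Saturated spots were kept. Gene symbols were read from each probe's name or accession, with RefSeq names of assembly GRCg7b, used for names only. They covered 9856 probes of 8408 genes, and 38 probes with conflicting names stayed unnamed. The MSI1 probe and both dimmer EBF3 probes were named from their descriptions. No sequence is shown, since the files used here hold none.

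No test was run, because each axis and stage is 1 array. Features past 1.5-fold were counted. The members and lists were chosen with earlier results of these data known. Genes named beyond the 6 were their 3 nearest neighbours, fixed relatives, and the highest and lowest gene of each neural list where past 1.5-fold, except that some results are not reported here. Tectal, blood, meningeal and oligodendrocyte genes were named in addition, after their values were seen. The normalisation was also run on simulated data with few changed spots, as many up as down. The splits on the anteroposterior arrays were lopsided, so that run cannot show how loess behaves on them. Alternatives covered background correction, centring, pixel summary, the value table, probe choice, threshold and filter. Tables were made in Python 3.11.15 with pandas 2.3.3 and numpy 2.4.6, and plots with matplotlib 3.10.9.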

Additional observations from a re-analysis of the deposited data

Results flagged for a closer look

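The posterior over anterior ratio of SOX8 lay on opposite sides at the 2 stages, at -0.64 at HH37 and 0.67 at HH35, a change of -1.31 on the log2 scale. Both values exceed the SD of repeated spots on their array, 0.116 and 0.114, which covers no biological spread. At HH37, 7.89% of features had a lower ratio than SOX8, and 9.91% were past 1.5-fold on the anterior side. At HH35, 99.1% of features had a lower ratio than SOX8, and 2.04% were past 1.5-fold on the posterior side. Nothing is read from either rank, since SOX8 was picked with its ratios in view. Of 10 other SOX genes measured, 8 were above 0 at HH35 and 9 below 0 at HH37, where 51.6% and 52.5% of all features were below 0. SOX5, SOX6 and SOX30 kept their side, and 0 of the 10 were past 1.5-fold at HH35. SOX8 was picked with its ratios in view, so nothing is read from its being past 1.5-fold where they were not. With 1 array per stage the difference of SOX8 was not tested.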

How the results depend on the processing

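No paired analysis was possible because each axis and stage is a single array and no result comes from a test. Counts of features past 1.5-fold moved with the processing. With plain background subtraction they were 1506 posterior and 3221 anterior at HH35, 2192 and 4305 in the same order at HH37, and on the mediolateral arrays 932 in Cy5 and 1454 in Cy3 at HH30 and 1018 and 1104 at HH35. With median centring they were 173 and 4270 at HH35 and 60 and 5898 at HH37 for posterior and anterior, 517 in Cy3 at HH30 and 441 in Cy3 at HH35. The deposited value table gave 2720 and 3740 at HH35, 3500 and 5204 at HH37, 1365 and 2335 at HH30 and 1951 and 2101 at HH35 mediolaterally. At 2-fold they were 49 and 202, 25 and 451, 76 and 18, and 19 and 8 in the same order. The median of foreground pixels gave 582 posterior at HH37. The cause of these moves was not tested, other than for the stricter threshold. No background correction, no filter on dim probes and a filter in both channels stayed within 1.5 times. No ratio of the 6 genes past 1.5-fold changed sign under any alternative run, whereas the HH37 minus HH35 change turned to 0.06 for MSI1 (plain subtraction, value table), and to 0.21 (value table) and 0.25 (median of foreground pixels) for NEUROD4. At HH35, median centring left 2 of the 5 posterior genes past 1.5-fold (HES6 and NEUROD4), and at HH37 it left 0, against 2 in each of the 4 other alternatives. The mediolateral ratio at HH35 was also subtracted, an alternative chosen after seeing the data. The result was 0.69 for NEUROD4, 0.90 for SOX3, 0.91 for MSI1, 1.0 for SOX8, 1.63 for HES6 and -0.63 for EBF3. Such values mix in a mediolateral difference of other pools. They are a different quantity and no check on the anteroposterior ratios. Averaging the measured EBF3 probes gave -0.33 at HH35 and -0.59 at HH37. Scaling levels by the array median turned the HH37 minus HH35 level difference to -0.59 for HES6 and -0.30 for MSI1, from which no order was drawn above. The dim channel of NEUROD4 leaves the size of its HH35 ratio uncertain.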
